A study of Mus musculus with 6 samples.

Results

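The inflammasome and pyroptosis genes described here are 10 named genes: Nlrp3 and Aim2, which encode sensors, Pycard, which encodes the adaptor ASC, the caspase genes Casp1, Casp4 and Casp8, the pore-forming gasdermin gene Gsdmd, the cytokine genes Il1b and Il18, and Il1rn, which encodes the receptor antagonist of interleukin-1. They were chosen by name from the pathway, and 10 of 10 had a value, among 15441 genes with a value in the series. Of these 10 genes, 6 were listed in all 6 libraries, against 11750 of the 15441 genes. The libraries came from male C57/BL6J mice of 6 to 8 weeks that had a photothrombotic stroke, in which Rose Bengal is injected and cold light on the skull over the sensorimotor cortex makes vessels clot. One library each stands for sham-operated mice, which had the operation without light and were taken on day 7, and for days 1, 3, 7, 14 and 28 after stroke. Each library held RNA of the whole ipsilateral cortex pooled from 3 mice, so there is 1 library per group, the spread between animals cannot be seen, and no difference below was tested.

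An inflammasome is a protein platform that assembles in the cytosol when a sensor meets a sign of danger or damage. NLRP3 responds to cellular stress such as the loss of potassium, and AIM2 binds double-stranded DNA in the cytosol. ASC links the sensor to caspase-1, which then cuts the precursors of interleukin-1 beta and interleukin-18 into their active forms and cuts gasdermin D. The cut gasdermin D forms pores in the plasma membrane, and the lytic death that follows is called pyroptosis. In the brain, microglia and infiltrating myeloid cells are known for this pathway. Much of its control lies in protein assembly and cleavage, which RNA does not measure.

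The values are FPKM, the fragments of a transcript scaled to its length and to the size of the library, so levels may be compared between genes. Each belongs to a splicing event, or to the start or the end of a transcript. The level of a gene in a library is the largest of its summed starts, its summed ends and any single event. A gene with no event in a library is called not listed, which does not show that it was absent. Ratios are log2((FPKM + 0.1)/(sham FPKM + 0.1)), which understates the change of low genes. A gene was compared with sham where it reached 1 FPKM in 1 of the 2 libraries, and it was counted as higher or lower from a log2 ratio of 1 in size.

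The transcript starts differed between libraries for several of these genes, so the promoter windows that bear on them are shown first. RefSeq's windows on GRCm38.p6, which hold 250 bases before and 50 bases after an annotated start site, were found for 9 of the 10 genes, 13 windows in all. Capitals mark a match to 1 of 5 short motifs searched on both strands, and a window without capitals had none. For Nlrp3 both windows are given, since each was the listed start at other days. The Casp8, Aim2 and Il1rn windows each hold a start that was listed in some libraries only. In each, the annotated start site is the 251st base.
Nlrp3 upstream promoter, chr11:59541319-59541618, plus strand: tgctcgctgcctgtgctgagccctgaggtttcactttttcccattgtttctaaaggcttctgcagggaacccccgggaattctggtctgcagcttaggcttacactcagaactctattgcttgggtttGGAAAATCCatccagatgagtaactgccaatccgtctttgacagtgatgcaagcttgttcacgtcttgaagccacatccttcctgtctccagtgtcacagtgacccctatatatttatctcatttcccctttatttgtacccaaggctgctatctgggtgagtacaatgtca
Nlrp3 downstream promoter, chr11:59542436-59542735, plus strand: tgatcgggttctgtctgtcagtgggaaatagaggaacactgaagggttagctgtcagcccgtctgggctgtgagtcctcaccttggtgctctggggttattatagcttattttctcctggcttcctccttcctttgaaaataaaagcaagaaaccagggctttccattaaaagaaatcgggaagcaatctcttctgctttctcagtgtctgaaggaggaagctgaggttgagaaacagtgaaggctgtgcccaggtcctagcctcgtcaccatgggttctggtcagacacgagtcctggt
Casp8, chr1:58802252-58802551, plus strand: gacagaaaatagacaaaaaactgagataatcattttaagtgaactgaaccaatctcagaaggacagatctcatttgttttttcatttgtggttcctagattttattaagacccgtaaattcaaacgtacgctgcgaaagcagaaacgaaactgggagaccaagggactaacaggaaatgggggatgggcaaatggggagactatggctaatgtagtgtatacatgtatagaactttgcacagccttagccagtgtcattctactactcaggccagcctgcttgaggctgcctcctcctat
Aim2, chr1:173420354-173420653, plus strand: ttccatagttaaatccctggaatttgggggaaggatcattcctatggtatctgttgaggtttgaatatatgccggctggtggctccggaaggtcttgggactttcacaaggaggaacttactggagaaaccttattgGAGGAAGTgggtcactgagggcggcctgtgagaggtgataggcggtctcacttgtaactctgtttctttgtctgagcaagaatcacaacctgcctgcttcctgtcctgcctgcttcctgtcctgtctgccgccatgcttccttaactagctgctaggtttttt
Il1rn, the middle of its windows, chr2:24345041-24345340, plus strand: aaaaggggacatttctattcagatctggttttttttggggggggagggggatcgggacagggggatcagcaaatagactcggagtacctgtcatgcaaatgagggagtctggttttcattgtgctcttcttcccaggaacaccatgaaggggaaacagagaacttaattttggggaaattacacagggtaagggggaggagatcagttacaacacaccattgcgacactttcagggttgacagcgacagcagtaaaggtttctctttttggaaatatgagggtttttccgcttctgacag

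The motifs were GGANTTTCC (like NF-kB sites, in 1.26% of all 32544 RefSeq windows of this length), GAAANNGAA (like ISRE, 8.53%), TTCNNNGAA (like GAS, 8.33%), TGANTCA (like AP-1, 7.79%) and GAGGAAGT (like PU.1, 3.11%). Across the 13 windows there were 4 matches, none overlapping another. The upstream Nlrp3 window held the NF-kB-like letters, beginning at -122 from the start site on the minus strand. The PU.1-like letters stood at -113 in the Aim2 window and, on the strand opposite to the gene, at -44 in that of Pycard. The AP-1-like letters stood at -141 in the most upstream Il1rn window, whose start site was not listed in any library. No match to these exact letters was found in the windows of Casp1, Casp4, Casp8, Il1b and Il18, and other forms of such sites were not searched. A match is a run of letters and was not tested as a binding site.

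Summed over these genes, FPKM was highest on day 7, the top of 5 of them: Pycard, Casp1, Gsdmd, Casp8 and Aim2. The cytokine genes and the other members followed other courses. The day 7 library also listed the most genes, 13987 against 13263 to 13800 in the others, and the part of this was not tested. On day 3, 5 of the 6 members compared were higher than sham, namely Aim2, Pycard, Casp1, Casp8 and Gsdmd. The background, which is the share of all genes compared that were called the same way, was 8.54% higher and 2.53% lower. On day 7 the same 5 of 6 were higher, against 8.53% of all genes higher and 2.12% lower. On day 14, 5 of 8 were higher (Pycard, Casp1, Casp4, Gsdmd and Il1b), against 8.97% higher and 6.92% lower. On day 1, 2 of 6 were higher, Il1b and Il1rn, against 5.11% higher and 4.48% lower. On day 28, 2 of 5 were higher, Aim2 and Casp1, against 3.68% higher and 2.79% lower. No member was counted as lower on any day, although Casp8 (log2 ratio -0.92) and Pycard (-0.76) were below sham on day 28, and with a pseudocount of 0.01, 1 member was counted as lower there. All 5 comparisons share the sham library. In bulk RNA, fewer cells of a type and less RNA per cell cannot be told apart, which holds for every difference here.

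The filter on low values fixed a part of these counts, since a gene under 1 FPKM in sham could be compared only in a library where it was high. Of the members, only Pycard, Casp8 and Il18 reached 1 FPKM in sham. Of these 3, 2 were higher on days 3 and 7 (Pycard and Casp8), 1 on day 14 (Pycard) and none on days 1 and 28. The calls also depended on the pseudocount of 0.1. With a pseudocount of 1, only Gsdmd was still called on day 3 (log2 ratio 1.18), from a level set by a splicing event above its transcript end. On day 7, Pycard (1.15), Casp1 (1.39) and Gsdmd (1.53) were called and Aim2 (0.99) and Casp8 (0.73) were not. On day 14 Casp1 (1.01) and Il1b were called, and on day 28 neither Casp1 (0.82) nor Aim2 (0.68). Over all genes compared, a pseudocount of 1 gave 622 of 12052 higher on day 3 and 659 of 12069 on day 7. It gave 691 of 12045 on day 14 and 241 of 11751 on day 28.

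Most of these genes were low, and low genes were called higher more often. Among genes whose larger FPKM of the 2 libraries was from 1 to under 5, a range chosen after the values were seen, 9.28% were higher on day 1, 17.4% on day 3, 16.8% on day 7, 16.6% on day 14 and 7.58% on day 28. The median log2 ratio of the members compared was 0.49 on day 1, 1.40 on day 3, 1.62 on day 7, 1.23 on day 14 and 0.60 on day 28. Over all genes compared it was 0.01, 0.03, 0.03, 0.10 and 0.03. The filter acts on the members' medians as on their counts. Members under 1 FPKM in sham entered a median only in libraries where they were high, which raises it. With only genes listed in both libraries, the members' median on day 1 was 0.19 and none was higher, since Il1b and Il1rn were not listed in sham.

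**Figure D1:**
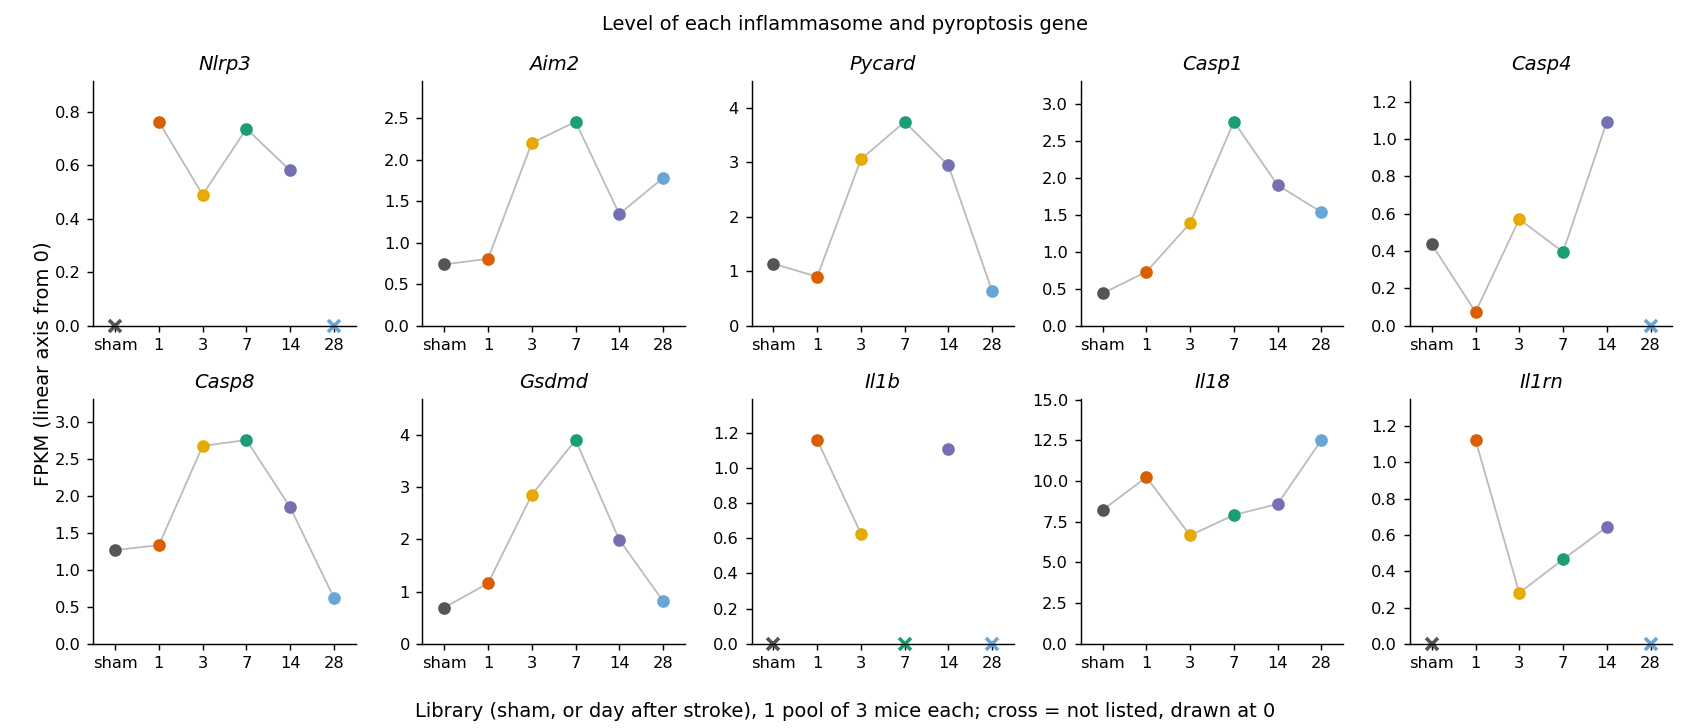
FPKM of each of the 10 genes in each of the 6 libraries (points), on a linear axis from 0 that differs between panels, with a cross at 0 where the gene was not listed. Aim2, Pycard, Casp1, Casp8 and Gsdmd were highest on day 7, Nlrp3, Il1b and Il1rn on day 1, Casp4 on day 14 and Il18 on day 28.

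Nlrp3 (ENSMUSG00000032691, chr11:59541568-59566956, plus strand, GENCODE M21 on GRCm38 as for all genes below) was not listed in sham or on day 28. It was at 0.762 FPKM on day 1, 0.489 on day 3, 0.736 on day 7 and 0.580 on day 14. It was thus listed in 4 of the 5 libraries after stroke and never reached 1 FPKM, so it was compared on no day. The start also differed. On day 1 the only start was at the upstream promoter, with all 0.762 FPKM, and on days 3 and 7 the only start was at the downstream promoter, with 0.489 and 0.736 FPKM. On day 14 only the transcript end was listed. The same end was listed at each of these days, at 0.412 FPKM on day 1, 0.456 on day 3, 0.649 on day 7 and 0.580 on day 14. Day 1 was thus the highest library by the start and the lowest of these days by the end, by which day 7 was the highest.

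Aim2 (ENSMUSG00000037860, chr1:173350879-173466040, plus strand, overlapped on the other strand by Cadm3) was at 0.738 FPKM in sham and 0.805 on day 1. It stood at 2.20 on day 3, 2.45 on day 7, 1.34 on day 14 and 1.78 on day 28. By these levels every library after stroke was above sham, day 1 by little, and the log2 ratio was 1.46 on day 3, 1.61 on day 7 and 1.16 on day 28. On day 28 a part of the level, 0.363 FPKM, came from a start outside the annotated gene, and without it the level was 1.42 FPKM and Aim2 was no longer counted as higher. Starts were spread over 6 positions. The one that carried most FPKM on all 5 days after stroke, from 56.3% of the start FPKM on day 28 to 90.1% on day 1, lay 34750 bases downstream of the RefSeq start site shown above. A start within the shown window, -6 bases from that site, was listed only on day 3 with 0.679 FPKM and on day 7 with 0.577 FPKM. In sham no start was listed and the level was that of a single splicing event, whereas after stroke it was a sum of starts. With the largest single event in every library, which was added with the values known, Aim2 was at 0.738 FPKM in sham, 0.725 on day 1, 1.42 on day 3, 1.84 on day 7, 0.804 on day 14 and 1.00 on day 28. By that measure the log2 ratio was 0.86 on day 3, 1.21 on day 7 and 0.39 on day 28, so that Aim2 was counted as higher on day 7 only.

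**Figure D2:**
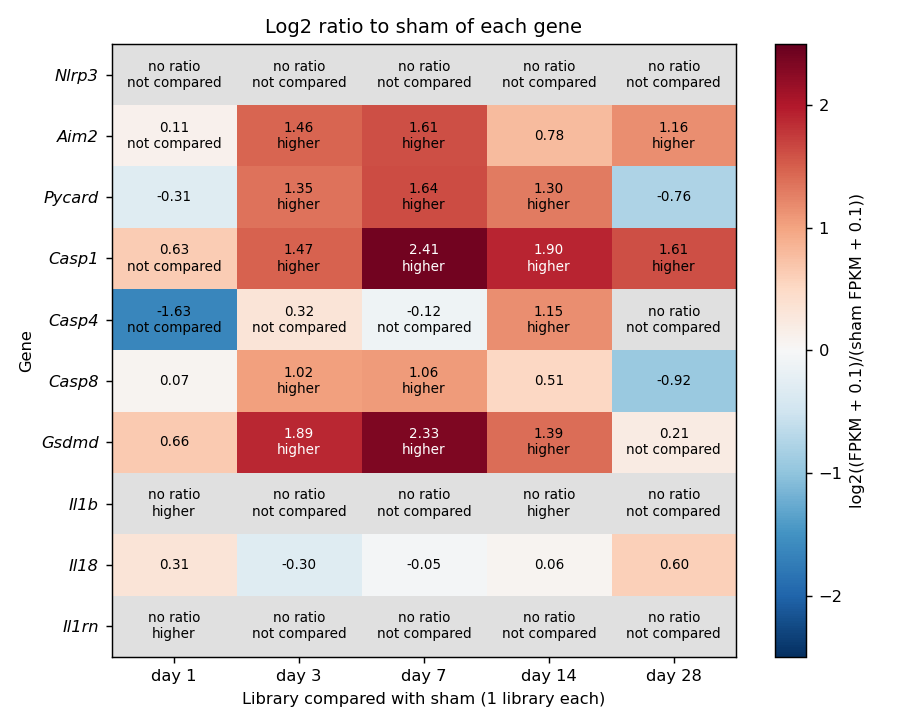
Log2 ratio of each gene (rows) on each day (columns) to the sham library, by colour and number, with the call under it. Higher means a log2 ratio of at least 1, and no ratio is given where the gene was not listed in 1 of the 2 libraries. Days 3 and 7 hold 5 higher genes each, and none is marked as lower.

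Pycard (ENSMUSG00000030793, chr7:127989708-127993867, minus strand, overlapped on the other strand by Gm45205) was at 1.14 FPKM in sham and 0.900 on day 1. It stood at 3.06 on day 3, 3.75 on day 7 and 2.94 on day 14, and was at 0.628 on day 28. The libraries of days 3, 7 and 14 were all above the other 3 libraries. The log2 ratio was 1.35, 1.64 and 1.30 at these days, against -0.31 on day 1 and -0.76 on day 28. Its only start, listed in all 6 libraries, lay 340 bases downstream of the RefSeq start site. A second transcript end was listed on day 3 with 0.147 FPKM and on day 7 with 0.171 FPKM, a small part of the level.

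Casp1 (ENSMUSG00000025888, chr9:5298517-5307265, plus strand) was at 0.437 FPKM in sham, 0.729 on day 1, 1.39 on day 3, 2.76 on day 7, 1.90 on day 14 and 1.54 on day 28. Sham was the lowest library and each library after stroke was above it. The log2 ratio of 2.41 on day 7 was the largest of any member that had a ratio, on any day. At 1.90 on day 14 and 1.61 on day 28, Casp1 had the largest ratio given for a member on those days also. Casp1 and Aim2 were the members counted as higher on day 28. Casp1 had 1 start, at the RefSeq start site, and 1 end, and the 2 agreed in FPKM in every library but day 1, where only the end was listed.

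Casp4 encodes the mouse protein also called caspase-11, which binds bacterial lipopolysaccharide inside cells and cuts gasdermin D without an inflammasome sensor. The gene (ENSMUSG00000033538, chr9:5308828-5336783, plus strand) was at 0.436 FPKM in sham, 0.0732 on day 1, 0.570 on day 3, 0.395 on day 7 and 1.09 on day 14, and was not listed on day 28. Only day 14 reached 1 FPKM and could be compared, with a log2 ratio of 1.15, so the low value of day 1 was not counted. With FPKM corrected for transcript length, day 14 was at 0.887 FPKM and was not compared either. The start at the RefSeq start site was listed only on day 14, where it carried 0.985 FPKM or 90.2% of the start FPKM. At the other days the starts lay 12539 and 14488 bases downstream of the nearest RefSeq start site, so the day 14 level and the other levels came mainly from different starts.

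Casp8 encodes the initiator caspase of death receptors, which can also act with ASC. The gene (ENSMUSG00000026029, chr1:58795374-58847503, plus strand, overlapped on the same strand by Gm37760) was at 1.27 FPKM in sham, 1.34 on day 1, 2.68 on day 3, 2.76 on day 7, 1.85 on day 14 and 0.623 on day 28. It was counted as higher on day 3 (log2 ratio 1.02) and day 7 (1.06), just past the threshold, and had a log2 ratio of -0.92 on day 28. The transcript end was the same in all libraries, but the listed start differed. The start at the RefSeq site shown above was the only one in sham, with 0.971 FPKM, and on day 14, with 1.85 FPKM. A start at -7128 bases from that site was the only one on day 1 (0.414 FPKM) and day 28 (0.623 FPKM), and it carried 83.2% of the start FPKM on day 3 and 66.8% on day 7. The start at the RefSeq site carried 16.8% and 20.9% on those days. In FPKM, the upstream start was thus listed on days 1, 3, 7 and 28 and not in sham, while the downstream start on days 3 and 7 (0.451 and 0.577 FPKM) was below its sham level. The FPKM of a start is an estimate that splits reads shared by transcripts, and the error of that split cannot be seen with 1 library.

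**Figure D3:**
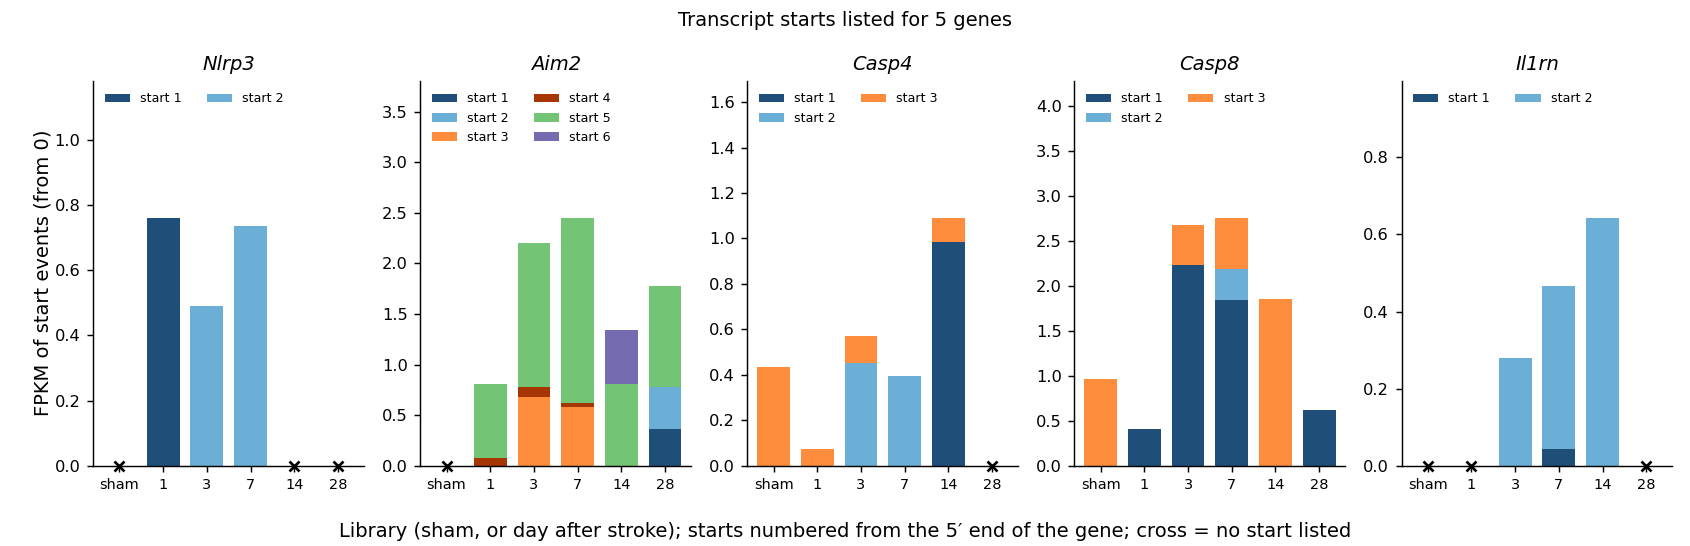
FPKM of transcript starts (stacked bars, from 0) of 5 genes in the 6 libraries, with starts numbered from the 5′ end of the gene, and a cross where none was listed. Nlrp3 had start 1 on day 1 (0.762 FPKM) and start 2 on days 3 and 7, and Casp8 had only start 3 in sham and on day 14 but mostly start 1 on days 3 and 7.

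Gsdmd (ENSMUSG00000022575, chr15:75862327-75867408, plus strand) was at 0.696 FPKM in sham, 1.16 on day 1, 2.85 on day 3, 3.90 on day 7, 1.99 on day 14 and 0.820 on day 28. Every library after stroke was above sham, and the log2 ratio was 1.89 on day 3, 2.33 on day 7, 1.39 on day 14, 0.66 on day 1 and 0.21 on day 28. On days 3 and 14 the level was set by a splicing event above the transcript end, whereas in sham it equalled the end. By the end, Gsdmd was at 2.05 FPKM on day 3 and 1.61 on day 14, with log2 ratios of 1.44 and 1.11. Gsdmd and Casp1 were the members with the largest ratios on day 7. Gsdmd had 23 splicing events beside its start and end, against 0 to 4 in the other members. Its 1 start was listed only on day 14 (0.377 FPKM) and lay outside the annotated gene. In sham and on days 1 and 14 the introns named in these events were listed only as spliced out. On day 3 an event with the intron at chr15:75863628-75864244 retained carried 0.802 FPKM, against 2.05 FPKM for it spliced out. On day 7, 2 events with that intron retained carried 0.509 and 0.643 FPKM, against 2.75 FPKM for it spliced out. On day 28 the intron at chr15:75866690-75866790 was listed only as retained, with 0.820 FPKM, which is the whole level of the gene at that day. Unspliced or partly spliced RNA is counted in that level.

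Il1b (ENSMUSG00000027398, chr2:129364570-129371139, minus strand, overlapped on the other strand by Il1bos) was at 1.16 FPKM on day 1, 0.626 on day 3 and 1.11 on day 14. It was not listed in sham or on days 7 and 28. It thus had no value on day 7, when Pycard, Casp1 and Gsdmd were highest, though it was listed before and after. Where it was listed, its 1 start, at the RefSeq start site, and its 1 end had the same FPKM. Il1b was counted as higher on days 1 and 14 with sham taken as 0, and no ratio is given. With FPKM corrected for transcript length, its day 14 level fell under 1 FPKM and it was not compared there.

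Il1rn (ENSMUSG00000026981, chr2:24336853-24351494, plus strand) was not listed in sham or on day 28, and was at 1.12 FPKM on day 1, 0.281 on day 3, 0.465 on day 7 and 0.644 on day 14. Like Il1b it was highest on day 1 and next highest on day 14, but it was also listed on day 7. Starts were listed on days 3, 7 and 14, of which that at 19 bases downstream of the start site in the window shown above carried 90.9% to 100% of the start FPKM. On day 1 only the transcript end and a splicing event were listed.

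Neutrophils carry much interleukin-1 beta and receptor antagonist RNA, so their markers are given beside these genes. The 10 neutrophil markers summed to 18.7 FPKM on day 1 with 5 of 10 listed and to 9.41 FPKM on day 14 with 4 of 10 listed. The sum was 0.227 FPKM in sham, 1.59 on day 3 and 1.33 on day 7, and none was listed on day 28. Most of the sums on days 1 and 14 was S100a8 (6.18 and 3.84 FPKM) and S100a9 (10.1 and 5.32 FPKM). S100a9 was listed only on days 1 and 14, the libraries in which Il1b was above 1 FPKM. S100a8 was also listed in sham (0.0729 FPKM), on day 3 (1.59) and on day 7 (0.682). Ngp and Cxcr2 were listed only on day 1, Retnlg on days 1 and 14, Camp on days 7 and 14, and Ltf in sham and on day 7. The defining markers Ly6g, Mpo and Elane were listed in no library. The part of these cells in the Il1b and Il1rn levels was not tested.

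Il18 (ENSMUSG00000039217, chr9:50554827-50581840, plus strand, overlapped on the other strand by Bco2 and Tex12) was the member with the highest level in all 6 libraries. It was at 8.21 FPKM in sham, 10.2 on day 1, 6.66 on day 3, 7.91 on day 7, 8.59 on day 14 and 12.5 on day 28. It was the lowest on day 3 and the highest on day 28, with log2 ratios between -0.30 and 0.60, so it was called on no day. The direction depended on which end of the gene was read. Its main start was at 4.93 FPKM in sham, 6.66 on day 3, 7.23 on day 7 and 8.59 on day 14, but at 2.98 on day 28, where its end was at 12.5. By the start sum day 28 was the lowest library and day 14 the highest, whereas by the end day 28 was the highest. Without Il18 the members summed to 4.71 FPKM in sham, 8.05 on day 1, 14.1 on day 3, 17.2 on day 7, 13.5 on day 14 and 5.39 on day 28.

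Day 7, the library with the highest levels of Pycard, Casp1, Casp8, Gsdmd and Aim2, also had the highest sums of microglia and of macrophage markers, though not of each marker. At the other days the order differed for some genes. Aim2 was higher on day 28 (1.78 FPKM) than on day 14 (1.34), and Casp1 was higher on day 28 (1.54) than on day 3 (1.39). Both marker sums were lower on day 28 than on days 3 and 14. The 7 microglia markers used, of which 4 or 5 were listed, summed to 67.9 FPKM in sham, 65.3 on day 1, 166 on day 3, 225 on day 7, 186 on day 14 and 77.2 on day 28. Itgam was listed in no library, Tmem119 only on days 7 and 28, and Cx3cr1 only on days 1 and 14, so the sum rests on Tyrobp, Csf1r, P2ry12 and Aif1. Tyrobp carried most of the rise, from 21.5 FPKM in sham to 146 on day 7. P2ry12 was no higher on day 7 (17.7 FPKM) or day 14 (13.3) than in sham (18.0), and Aif1 was highest on day 14 (15.2, against 7.25 on day 7 and 4.43 in sham). The geometric mean of these 4 markers was 31.9 FPKM on day 3 and 31.5 on day 7. The 7 monocyte and macrophage markers, of which 4 to 7 were listed, went from 12.3 FPKM in sham to 163 on day 3, 397 on day 7 and 225 on day 14, most of it Lyz2, and Ccr2 was at 0.199 FPKM or less. T cell markers summed to 3.20 FPKM in sham, and from 1.49 on day 3 to 5.42 on day 14 after stroke. Most of this was Cd4, at 2.56 FPKM in sham and 4.43 on day 14, while Cd3g, Cd8a and Lck were listed in no library.

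Set against the microglia sum, the members parted. The level of Pycard per FPKM of these markers was 1.10 times that of sham on day 3, 1.00 times on day 7 and 0.94 times on day 14, and 0.49 times on day 28. Casp1 per marker FPKM was above sham on each day, at 1.30 times on day 3, 1.91 on day 7, 1.59 on day 14 and 3.09 on day 28. Gsdmd was at 1.68 times on day 3, 1.70 on day 7 and 1.04 on day 14, with days 3 and 14 set by a splicing event above the transcript end. Casp8 went the other way, at 0.86, 0.66, 0.53 and 0.43 times sham on days 3, 7, 14 and 28. Aim2 was between 0.66 and 1.22 times sham up to day 14 and at 2.12 times on day 28, while Il18 was at 1.30 times on day 1, 0.33 on day 3, 0.29 on day 7, 0.38 on day 14 and 1.34 on day 28. The Aim2 values set a sum of starts after stroke, on day 28 in part outside the annotated gene, against a single splicing event in sham. By the largest single event Aim2 was at 1.00 FPKM on day 28 and 0.738 in sham. The Il18 values of sham and day 28 are those of its transcript end (8.21 and 12.5 FPKM), while its starts were at 4.93 and 2.98 FPKM. Without the markers, the log2 ratios of Il18 lay between -0.30 and 0.60. With the geometric mean of the 4 markers listed in all libraries in place of the sum, in which Tyrobp weighs most, day 7 was at 1.49 times for Pycard, 2.86 for Casp1, 2.54 for Gsdmd and 0.98 for Casp8. The part of cell numbers in these levels was not tested.

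**Figure D4:**
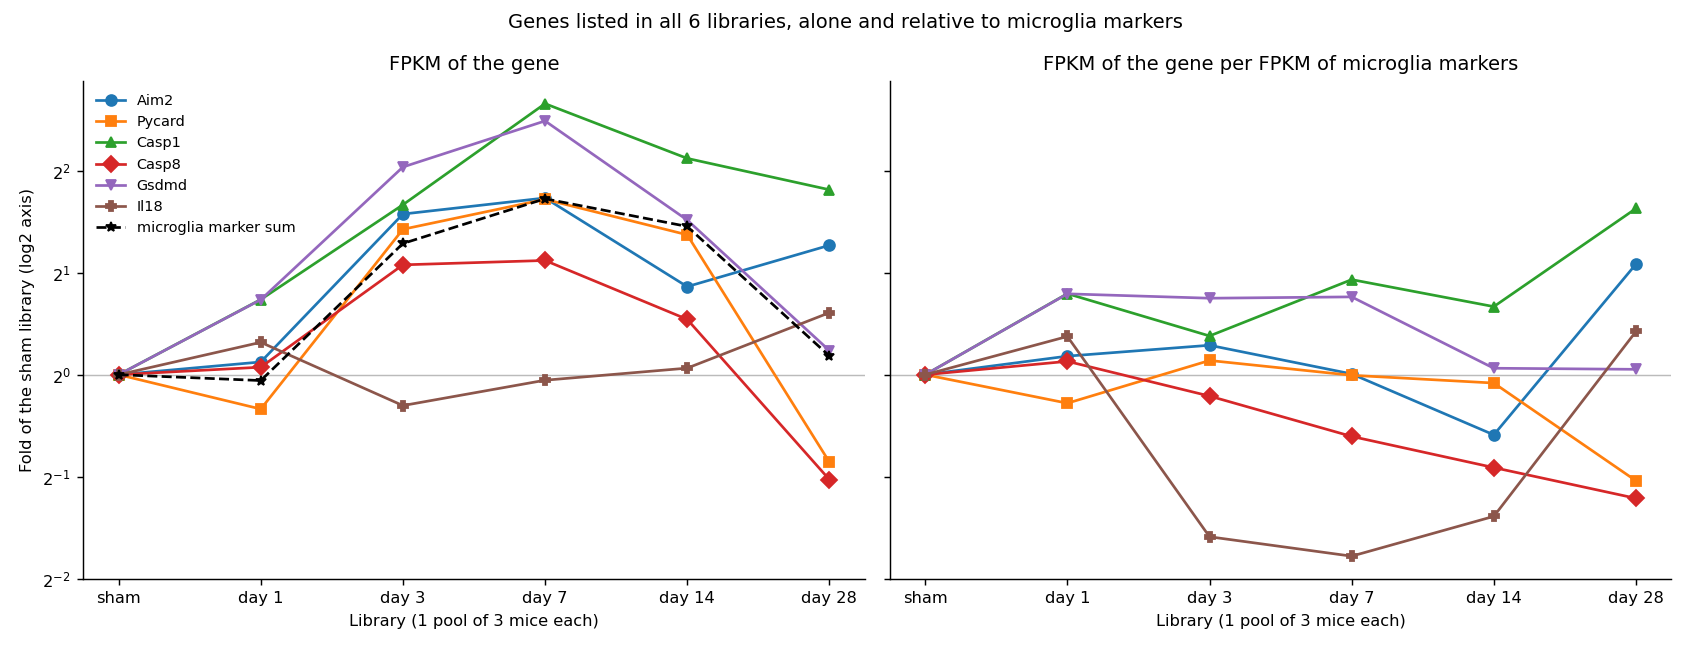
Fold of the sham library (log2 axis) for the 6 genes listed in all libraries, as FPKM on the left with the microglia marker sum as a dashed line, and per FPKM of those markers on the right. On the right Pycard lies near 1 up to day 14, while Casp1 ends at 3.09 and Casp8 at 0.43 on day 28.

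Markers of the dissected region also differed between libraries. Of the 6 cortex markers, 5 were listed in each library but day 14, which had 4, and their sum was 353 FPKM in sham, 195 on day 14 and 261 to 346 at the other days. Neurod6 was listed in no library. Of 6 hypothalamus markers none was listed in sham, while after stroke 2 to 4 were listed, with sums from 4.49 FPKM on day 28 to 55.9 FPKM on day 1. On day 14 the log2 ratio of all genes fell with transcript length (Spearman rho -0.413 across genes, which are not independent replicates), and 38 genes were missing although the other libraries had a median of at least 5 FPKM, against 2 to 7 in the others. The part of these differences in the members' levels was not tested. With FPKM corrected for the length trend, 3 members were higher on day 14 in place of 5, as Casp4 and Il1b fell under 1 FPKM.

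By Pearson correlation of log2 levels over the 6 libraries, among 11565 genes, Pycard was most like Anpep (r = 0.999) and Ifngr2 (0.996), which encode an aminopeptidase and a chain of the interferon gamma receptor. Gsdmd was most like Clic1 and Sqor (both 0.998) and Vav1 (0.997), and Casp8 most like Vsig10 (0.998), Fcrls (0.997) and Cat (0.996), which encodes catalase. Casp1 was most like Sf3b3 (0.985) and Cyp7b1 (0.984), and Aim2 most like Katna1 (0.995) and 2610044O15Rik8 (0.983). Il18 was most like Ndrg4 (0.994), Nedd4l (0.993) and Nsg2 (0.990). The points are 6 libraries shared by all genes, and with so many genes to choose from such values describe these libraries only.

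The other genes of the pathway were taken as 4 lists. Of their 58 genes, 42 had a value. On day 7, 9 of the 32 compared were higher and 1 lower, and on day 3, 6 of 29 were higher and 1 lower. On day 14, 7 of 30 were higher and 3 lower, on day 1, 5 of 28 were higher and 3 lower, and on day 28, 3 of 28 were higher and 1 lower. Their median log2 ratio was 0.27 on day 1, 0.51 on day 3, 0.50 on day 7, 0.31 on day 14 and 0.16 on day 28. The filter on low values acts on these medians as on those of the members. The background shares of all genes are those given above for each day.

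Among the 17 sensors and priming genes, 10 had a value. Of these, 5, 6, 7, 7 and 5 were compared on days 1, 3, 7, 14 and 28. Of those compared, 2, 2, 4, 3 and 1 were higher, with 1 lower, P2rx7 on day 1. Gbp2, an interferon-induced GTPase, was at 0.662 FPKM in sham, 1.81 on day 1, 2.57 on day 3, 4.03 on day 7, 5.63 on day 14 and 1.64 on day 28, and was higher on all 5 days. Zbp1, a sensor of Z-form nucleic acids, was not listed in sham or on day 3 and stood at 0.662, 1.21, 4.22 and 0.450 FPKM on days 1, 7, 14 and 28. Both were highest on day 14, whereas 5 of the members were highest on day 7. Txnip, which encodes a thioredoxin-binding protein reported to bind NLRP3, was at 5.68 FPKM in sham and highest on day 1 with 14.5, and was 11.8 on day 7. These levels are those of its starts, while its transcript ends were at 0.207 FPKM in sham, 0.106 on day 1 and 0.00357 on day 7. Naip2, which joins Nlrc4 in recognising bacterial proteins, was listed only on days 3, 7 and 14, at 1.14, 1.87 and 0.815 FPKM. Nlrc4 itself, Nlrp1a, Nlrp1b and Mefv were listed in no library.

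**Figure D5:**
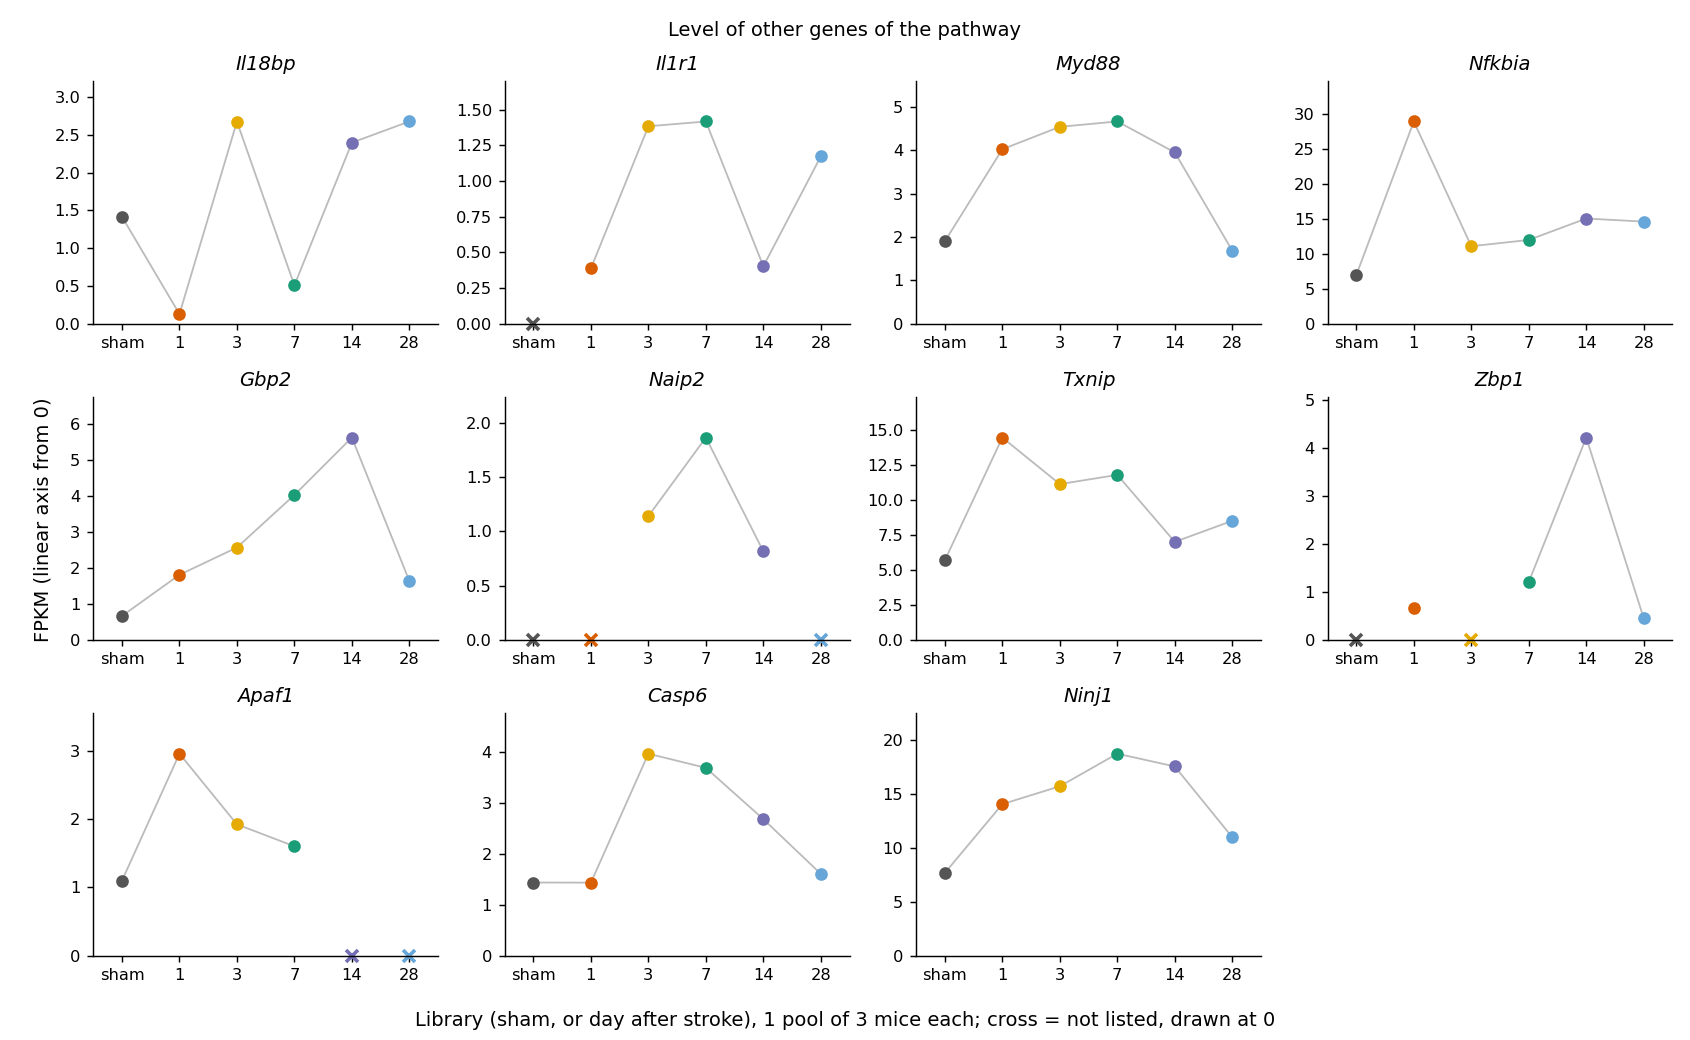
FPKM of 11 other pathway genes, those called at 2 or more days, in the 6 libraries (points), on a linear axis from 0 that differs between panels, with a cross where the gene was not listed. Gbp2 and Zbp1 were highest on day 14, Txnip, Nfkbia and Apaf1 on day 1, and Ninj1 and Myd88 on day 7.

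Among the 14 genes of other caspases and lytic death, 12 had a value. Of these, 9, 9, 9, 10 and 9 were compared on days 1, 3, 7, 14 and 28. Of those compared, 1, 2, 2, 1 and 0 were higher, while 1, 0, 0, 2 and 1 were lower. Ninj1, whose protein ruptures the plasma membrane in lytic death, was at 7.68 FPKM in sham, 14.0 on day 1, 15.7 on day 3, 18.7 on day 7 and 17.5 on day 14, and on day 28 lay between its levels in sham and on day 1. Like Gsdmd it was highest on day 7, and it was counted as higher on days 3, 7 and 14. Casp6, an executioner caspase, was at 1.44 FPKM in sham and on day 1, and at 3.97 on day 3 and 3.70 on day 7. Apaf1, the scaffold of the apoptosome, was at 1.10 FPKM in sham and 2.96 on day 1, and was not listed on days 14 and 28. It was counted as lower on those days with its level taken as 0, and it was the only gene of this list counted as lower on day 28.

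Of the 14 other genes of the interleukin-1 family, its receptors and decoys, 8 had a value. Of these, 4, 4, 5, 3 and 4 were compared on days 1, 3, 7, 14 and 28. Of those compared, 0, 1, 2, 0 and 1 were higher, while 1, 0, 1, 0 and 0 were lower. Il1r1, the signalling receptor of interleukin-1, was not listed in sham and stood at 0.386, 1.38, 1.42, 0.402 and 1.17 FPKM on days 1, 3, 7, 14 and 28. Il18bp, the secreted decoy of interleukin-18, was at 1.42 FPKM in sham, 0.127 on day 1, 2.68 on day 3, 0.508 on day 7, 2.40 on day 14 and 2.68 on day 28. By these levels, which are those of its transcript ends, it was lower than sham on days 1 and 7 and above it at the other days. By the start sum, Il18bp was at 0.413 FPKM in sham, 0.298 on day 3, 0.215 on day 7 and 0.829 on day 14. It had no start listed on days 1 and 28, so day 3 was above sham by the end only, and there was no steady direction. Of the 13 genes that signal downstream of the receptor, 12 had a value, and 10, 10, 11, 10 and 10 were compared on these days. Of those compared, 2, 1, 1, 3 and 1 were higher while 0, 1, 0, 1 and 0 were lower. Myd88, the adaptor of interleukin-1 and Toll-like receptors, was at 1.90 FPKM in sham, 4.02 on day 1, 4.54 on day 3, 4.66 on day 7, 3.95 on day 14 and 1.68 on day 28, and was higher on each day but day 28. Nfkbia, the inhibitor of NF-kB that NF-kB itself induces, was at 6.95 FPKM in sham, 28.9 on day 1, 11.1 on day 3, 15.0 on day 14 and 14.6 on day 28, with day 7 between days 3 and 14. It was counted as higher on days 1, 14 and 28 and was highest on day 1, like Il1b and Il1rn.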

How the data were processed

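The authors deposited 1 table per library, with the FPKM of each splicing event and of each start and end of a transcript on mm10, leaving out events at 0. Per the labels, Trimmomatic 0.30, HISAT2 2.0.1 and HTSeq 0.6.1 were named, with no roles given. Libraries were poly(A)-selected and strand-specific, with paired reads of 150 bases and a stated mean of 33.6 M reads. No depth is known for the single libraries, and no interval can be given. Reads of a gene and its antisense partner are told apart only as well as that strand setting worked upstream.

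From these values a level per gene was built as described with the results. Events were joined by the authors' Ensembl identifiers, of which 15411 of 15441 matched GENCODE M21, and this construction was chosen earlier with lists of the study in view. The 10 genes, the pathway lists, the marker lists and the motifs were chosen with earlier results of these data known. Pathway genes are named where called on 2 or more days, at most the 6 per list with the largest changes, and 3 genes were sought per member for likeness over genes listed in all 6 libraries. Genes not listed were taken as 0 in counts. The calls and the length correction (20 bins) were tested on simulated data, only for genes of at least 2 FPKM in sham. Of the members only Il18 reached that level in sham. The simulation thus did not cover calls near 1 FPKM or from a sham value taken as 0. In all, 14 alternatives were tried, the largest single event only after the data had been seen, covering the pseudocount, the filter, the construction, the scaling, the length trend and the threshold. Python 3.11.15, numpy 2.4.6, pandas 2.3.3 and matplotlib 3.10.9 were used. A promoter window for Gsdmd, and protein sequences, were not used here. One microglia marker is not reported here and was left out of the marker sum and the ratios to it.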

Additional observations from a re-analysis of the deposited data

How the results depend on the processing

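No paired analysis was possible because each group has 1 library. With 1 library per group, the error of every value is unknown, and low levels near 1 FPKM rest on few fragments. No member ratio that was called turned its direction under the alternatives. Of the recomputed counts of members, 121 stayed within 1.5 times of the value given and 19 did not, and of those over the other pathway genes, 101 did and 39 did not. The 121 include most counts of members lower, which were 0 on each day and mostly stayed 0. The split thus makes the counts of members higher look steadier than they were. The counts of members moved most with the pseudocount and the threshold: with a pseudocount of 1, the members higher were 1 on day 3, 3 on day 7, 2 on day 14 and 0 on day 28, and with a log2 threshold of 2 they were 0, 2, 1 and 0. Over all genes compared, the pseudocount of 1 gave 622, 659, 691 and 241 higher on these days. The threshold of 2 gave 359, 418, 363 and 142. In the main setting it was 1029 of 12052, 1030 of 12069, 1081 of 12045 and 432 of 11751. With a pseudocount of 0.01, 1 member was lower on day 28, against 355 of 11751 genes. With no filter, 8 were higher on day 3, against 1903 of 14297 genes. Also with no filter, 1 was lower on day 1 (against 1142 of 14083) and 1 on day 28 (859 of 14010). With a 1.5-fold threshold, 2 were lower on day 28, against 813 of 11751 genes. Counting genes listed in both libraries only, 0 were higher on day 1, against 477 of 11545 genes. With the start sum it was 1, against 651 of 11181. On day 28, 1 was higher with the end sum, 1 with events inside the annotated span and 1 with the largest single event. Over all genes these settings gave 503 of 9121, 416 of 11462 and 413 of 11662 higher. With the length correction 3 were higher on day 14, against 903 of 11958 genes.

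For the other pathway genes, a pseudocount of 1 gave 2 higher and 1 lower on day 1, 0 lower on days 3 and 7, 4 higher and 1 lower on day 14 and 1 higher on day 28. Among all genes it gave 174 of 12052 lower on day 3, 147 of 12069 lower on day 7 and 241 of 11751 higher on day 28. No filter gave 8 and 5 on day 1, 3 lower on day 3, 2 lower on day 7, 11 and 6 on day 14 and 6 and 3 on day 28. Among all genes it gave 743 of 14297 lower on day 3 and 657 of 14422 lower on day 7. On day 28 it gave 1114 higher and 859 lower of 14010. A filter at 0.5 FPKM gave 2 lower on days 7 and 28, against 445 of 13272 and 566 of 12973 genes. Listed in both only, 0 were lower on day 28, against 244 of 11583 genes. The start sum gave 0 lower on days 3 and 7, against 404 of 11533 and 373 of 11546 genes. The end sum gave 1 lower on day 14 and 0 on day 28, against 629 of 9417 and 360 of 9121 genes. The largest single event gave 0 lower on day 7, against 267 of 11964 genes. The length correction gave 4 higher on day 14, against 903 of 11958 genes. The 1.5-fold threshold gave 9 and 5 on day 1, 14 higher on day 3, 15 higher on day 7, 6 lower on day 14 and 3 lower on day 28. Among all genes it gave 1920 of 12052 higher on day 3, 1847 of 12069 higher on day 7 and 813 of 11751 lower on day 28. The log2 threshold of 2 gave 1 and 1 on day 1, 2 and 0 on day 3, 5 and 0 on day 7, 2 and 1 on day 14 and 1 higher on day 28. Among all genes it gave 359 and 84 of 12052 on day 3, 418 and 73 of 12069 on day 7 and 142 of 11751 higher on day 28. With the start sum 4 members were highest on day 14 and 0 on day 28, and with the end sum 0 on day 14. Over all genes compared, the numbers moved as well. A pseudocount of 1 gave 376 higher and 298 lower of 11790 on day 1, and 691 and 625 of 12045 on day 14. No filter gave 1307 and 1142 of 14083 on day 1, and 1822 and 1416 of 14166 on day 14. For the 1.5-fold threshold it was 1353 and 1320 of 11790, and 2225 and 1612 of 12045. For the log2 threshold of 2 it was 210 and 187 of 11790, and 363 and 450 of 12045. Beyond what each alternative does by construction, the cause was not tested.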

Other observations

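Among the other cytokine genes of the interleukin-1 family, Il1a and Il33, named after their values were seen, took different courses. Il1a encodes interleukin-1 alpha, which is active without cleavage by caspase-1. It was at 0.0684 FPKM in sham, 0.886 on day 1, 0.662 on day 3, 1.17 on day 7 and 0.971 on day 14, and was not listed on day 28. Only day 7 could be compared, and Il1a was then listed while Il1b was not. Il33 encodes an alarmin kept in the nucleus of glia, and stood at 11.3 FPKM in sham and between 12.4 and 16.2 FPKM after stroke, with no call. Il1rap, the accessory chain of both receptors, was at 9.78 FPKM in sham and between 6.39 and 8.28 FPKM after stroke, also with no call.

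Gsdme, which encodes another gasdermin, was at 3.34 FPKM in sham and between 1.83 and 3.86 FPKM after stroke, and was called on no day. Of the necroptosis genes, Mlkl was listed only on day 7, at 0.354 FPKM, and Ripk3 only in sham and on day 7, at 0.427 and 0.932 FPKM.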
